A study of Mus musculus with 9 samples.

Results

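Immunity-related GTPases are interferon-inducible enzymes that hydrolyse GTP and act against parasites and bacteria inside membrane-bound vacuoles. The family described here comprised 8 genes, Irgm1, Irgm2, Igtp, Iigp1, Gm12250, Tgtp1, Tgtp2 and Ifi47, chosen by symbol from a table of 29763 named genes. All 8 were found and all 8 passed the filter on low values, which asked for 1 TPM or more in 3 or more libraries. TPM is a gene's share of all transcripts after division by transcript length, so levels can be compared between genes. The libraries came from macrophages grown from mouse bone marrow for 7 days in medium with 30% supernatant of L929 cells, a fibroblast line that secretes macrophage colony-stimulating factor. Each of 3 genotypes had 3 libraries. They were wild type, Ndufa4l3_miR147KO (mice that lack Ndufa4l3, also called Nmes1, together with miR-147) and Ndufa4KO (mice that lack Ndufa4). Every library, wild type included, was made after 12 h of interferon-gamma at 40 ng/ml, so the values compare genotypes in stimulated cells and hold no unstimulated level. The labels call the replicates technical, so p-values measure the spread between libraries and not between mice, and they do not say how the alleles were made or how many mice were used.

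Promoters of genes induced by interferon-gamma often hold a GAS element, named for gamma-activated site, and an ISRE, the element that interferon regulatory factors bind. The proteins fall into regulators and effectors. Irgm1, Irgm2 and Igtp (also called Irgm3) are regulators: they sit on host membranes, carry a methionine where other GTPases have a conserved lysine in the nucleotide-binding loop, and keep the effectors inactive there. Iigp1 (Irga6), Gm12250 (Irgb10), Tgtp1 and Tgtp2 (both Irgb6) and Ifi47 (Irgd) are effectors, which load onto the vacuole of an invading microbe and help to disrupt it.

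The members of chromosome 11 lie in a pair of clusters, and their promoters are shown because a GAS and an ISRE stand close together in most of them. The windows of the 7 members on chromosome 11 were searched, from RefSeq start sites on GRCm38.p6, and that of Iigp1 was not. The 100 bases just before the start site are printed 5′ to 3′ along the gene's strand, with matches to the GAS letters TTCNNNGAA and to the ISRE core, GAAA and GAAA with any 2 bases between them, in capitals. Both strands were searched.
Tgtp1, chr11:48992247-48992346, minus strand: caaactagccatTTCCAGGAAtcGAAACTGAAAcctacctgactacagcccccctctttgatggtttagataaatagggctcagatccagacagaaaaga
Tgtp2, chr11:49064213-49064312, minus strand: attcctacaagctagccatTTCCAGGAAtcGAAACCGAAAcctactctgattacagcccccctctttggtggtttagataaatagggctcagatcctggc
Igtp, chr11:58199456-58199555, plus strand: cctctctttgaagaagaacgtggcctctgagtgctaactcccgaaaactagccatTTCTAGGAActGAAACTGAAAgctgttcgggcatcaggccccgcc
Irgm2, chr11:58214877-58214976, plus strand: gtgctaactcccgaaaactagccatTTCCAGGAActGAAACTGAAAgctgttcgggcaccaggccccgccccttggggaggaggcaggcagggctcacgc
Gm12250, chr11:58183743-58183842, plus strand: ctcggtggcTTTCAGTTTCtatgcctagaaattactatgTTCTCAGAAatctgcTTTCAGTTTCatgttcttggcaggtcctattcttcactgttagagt
Irgm1, chr11:48871421-48871520, minus strand: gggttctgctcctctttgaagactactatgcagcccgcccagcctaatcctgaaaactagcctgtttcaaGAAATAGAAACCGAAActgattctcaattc

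In Tgtp1, Tgtp2, Igtp and Irgm2, the GAS was followed after 2 bases by an ISRE core on the same strand. This arrangement lay 88 to 68 bases before the start in Tgtp1 and 81 to 61 bases before it in Tgtp2. Gm12250 held a GAS between a pair of ISRE matches on the other strand, and Irgm1 held a pair of overlapping ISRE matches and no GAS. In windows of 300 bases, from 250 before to 50 after the start, 5 of the 7 members had a GAS and 6 had an ISRE core, against 8.30% and 3.44% of all 32851 promoter windows of that length. Both motifs occurred in 5 members and in 0.45% of all windows. The exact arrangement of GAS, 2 bases and ISRE core, which was put together after the members' promoters had been read, was in 5 of the 32851 windows: those of Tgtp1, Tgtp2, Igtp, Irgm2 and Gm12185, a neighbouring entry whose RefSeq synonym is Irgb2b1. The members' windows were not all distinct from each other. Those of Tgtp1 and Tgtp2 were 68.0% identical and those of Igtp and Irgm2 71.3%, higher than for any other pair of the 7. These pairs hold all 4 members with the exact arrangement, so the counts of members are not counts of independent promoters. How far this likeness accounts for the shared matches was not tested. The window of Ifi47 held neither motif. A match describes these letters and does not show that a factor binds there.

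**Figure D1:**
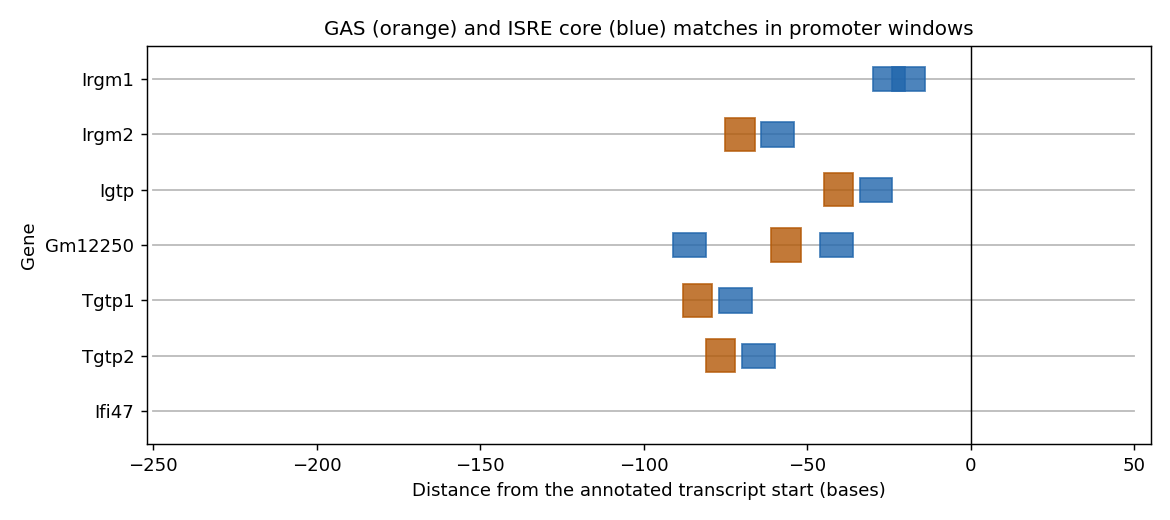
Positions of GAS matches (orange) and ISRE core matches (blue) in the promoter windows of 7 members; the x axis is the distance in bases from the annotated transcript start and each grey line is 1 gene's window. Tgtp1, Tgtp2, Igtp and Irgm2 share the order GAS then ISRE core, Gm12250 has a GAS between 2 ISRE cores, and Ifi47 has no match.

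The genes differ in how well reads can tell them apart. In GENCODE M21 on GRCm38, Tgtp1 (ENSMUSG00000078922.9, chr11:48985327-48994172, minus strand) and Tgtp2 (ENSMUSG00000078921.3, chr11:49057194-49064206, minus strand) have coding sequences of 1245 bases that differ at 4 positions, an identity of 99.68%. Of the 31-base words in the Tgtp1 transcripts, 83.2% also occur in Tgtp2, and 89.2% of those of Tgtp2 occur in Tgtp1, so the level of either gene alone is uncertain. Gm12185, which overlaps Tgtp1, holds 7.22% of the Tgtp1 words and 7.81% of the Tgtp2 words. It was at 26.4 ± 3.10 TPM in wild type, 29.0 ± 3.78 in Ndufa4l3_miR147KO and 18.9 ± 5.12 in Ndufa4KO (SD, n = 3). Irgm2 (ENSMUSG00000069874.7, chr11:58199618-58222782, plus strand) and Igtp (ENSMUSG00000078853.8, chr11:58199556-58207591, plus strand) overlap in GENCODE, although RefSeq starts Irgm2 downstream of Igtp, and they share 9.16% and 15.9% of their words. Irgm1 (ENSMUSG00000046879.7, chr11:48861968-48871683, minus strand) shares 0.293% with other members. Ifi47 (ENSMUSG00000078920.3, chr11:49076587-49096974, plus strand) overlaps Olfr56 and Gm12188, which hold 3.32% and 3.04% of its words. In wild type, Ndufa4l3_miR147KO and Ndufa4KO, Gm12188 was at 13.2 ± 2.27, 9.19 ± 0.881 and 6.55 ± 3.96 TPM. Olfr56 was at 2.20 ± 0.186, 2.18 ± 0.682 and 1.43 ± 0.391 TPM. The part of these neighbours' reads in the members' values was not tested. Iigp1, on chromosome 18, shares no words with the other members or these neighbours, and neither does Gm12250 (ENSMUSG00000082292.3, chr11:58187739-58189012, plus strand). Words shared with any other gene, such as further entries of the same gene family, were not counted. GENCODE M21 lists Gm12250 as a processed pseudogene of a single 1274-base transcript, while RefSeq lists it as protein coding.

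The labels were checked on the targeted genes first. Ndufa4l3, listed as AA467197, ranged from 355 to 365 TPM in wild type and from 2.21 to 4.50 in its knockout. In Ndufa4KO it ranged from 472 to 526.5 TPM, above every wild-type library. Ndufa4 was listed at 0 in 7 of the 9 libraries, 2 of them wild type, and at 0.303 TPM in wild-type replicate 2 and 0.621 TPM in Ndufa4l3_miR147KO replicate 2, so it checks nothing about that label. Markers fixed for macrophages were present in all libraries, 8 of 8 passing the filter. Their summed level was 9238 to 9373 TPM in wild type, 8878 to 9049 in Ndufa4l3_miR147KO and 9830 to 10270 in Ndufa4KO, with no overlap. Much of this sum was Lyz2, at 4585 ± 75.2, 4094 ± 68.7 and 5414 ± 234 TPM in these genotypes. In Ndufa4KO Lyz2 was called higher and Mertk lower (limma adjusted p = 0.0112 and 0.0487), and 5 of the 8 estimates were below 0. Of 7 neutrophil markers 4 passed the filter, with sums of 3.68 to 78.0 TPM in wild type, 36.6 to 72.7 in Ndufa4l3_miR147KO and 1.47 to 37.9 in Ndufa4KO. Markers of stromal cells summed to at most 14.1 TPM, and those of lymphocytes and NK cells to at most 0.323 TPM with 1 of 6 at 0 throughout. Of 6 conventional dendritic cell markers 2 passed the filter, and the list's sum was 27.7 to 29.6 TPM in wild type, 30.0 to 35.3 in Ndufa4l3_miR147KO and 40.8 to 76.6 in Ndufa4KO. Most of it was Clec9a, at 26.7 ± 1.26 TPM in wild type and 55.2 ± 17.4 in Ndufa4KO (called higher, limma adjusted p = 0.0166). Xcr1, the other marker that passed, was at 1.455 ± 0.276 and 1.99 ± 0.738 TPM in these genotypes. Its log2 fold change was 0.26 ± 0.18 (limma adjusted p = 0.393). The markers that did not pass, Flt3, Zbtb46, Ccr7 and Cd209a, had means of at most 0.532 TPM. The part of these markers' cells in the results was not tested. Ndufa4KO replicate 3 stood apart. Against the mean of the remaining Ndufa4KO libraries, its longer transcripts tended to be lower (rho = -0.505 over 10673 genes, a description).

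The family was abundant in every library. The sum of the 8 members ranged from 4571 to 4815 TPM in wild type and from 4358 to 4689 in Ndufa4l3_miR147KO, and it was 4719, 4181 and 3727 TPM in Ndufa4KO replicates 1, 2 and 3. The first of these lay in the wild-type range and the others lay below it. In bulk RNA, fewer expressing cells and less RNA per cell cannot be told apart. Regulators made up 34.7% to 36.5% of the sum in all 9 libraries. In wild type the order of levels per length was Iigp1, Irgm1, Ifi47, Tgtp2, Igtp, Gm12250, Irgm2 and Tgtp1, from 1002 ± 45.2 TPM, rank 147 of 29763 genes, to 117 ± 4.36 TPM, rank 1298. Iigp1 and Irgm1 overlapped in each genotype. Ifi47 and Tgtp2 overlapped in Ndufa4KO only, where Tgtp2 ranged from 606 to 765 TPM and Ifi47 from 613 to 738 TPM, and the other neighbours in this order did not overlap in any genotype. No member differed more than 1.56-fold between its highest and lowest library.

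**Figure D2:**
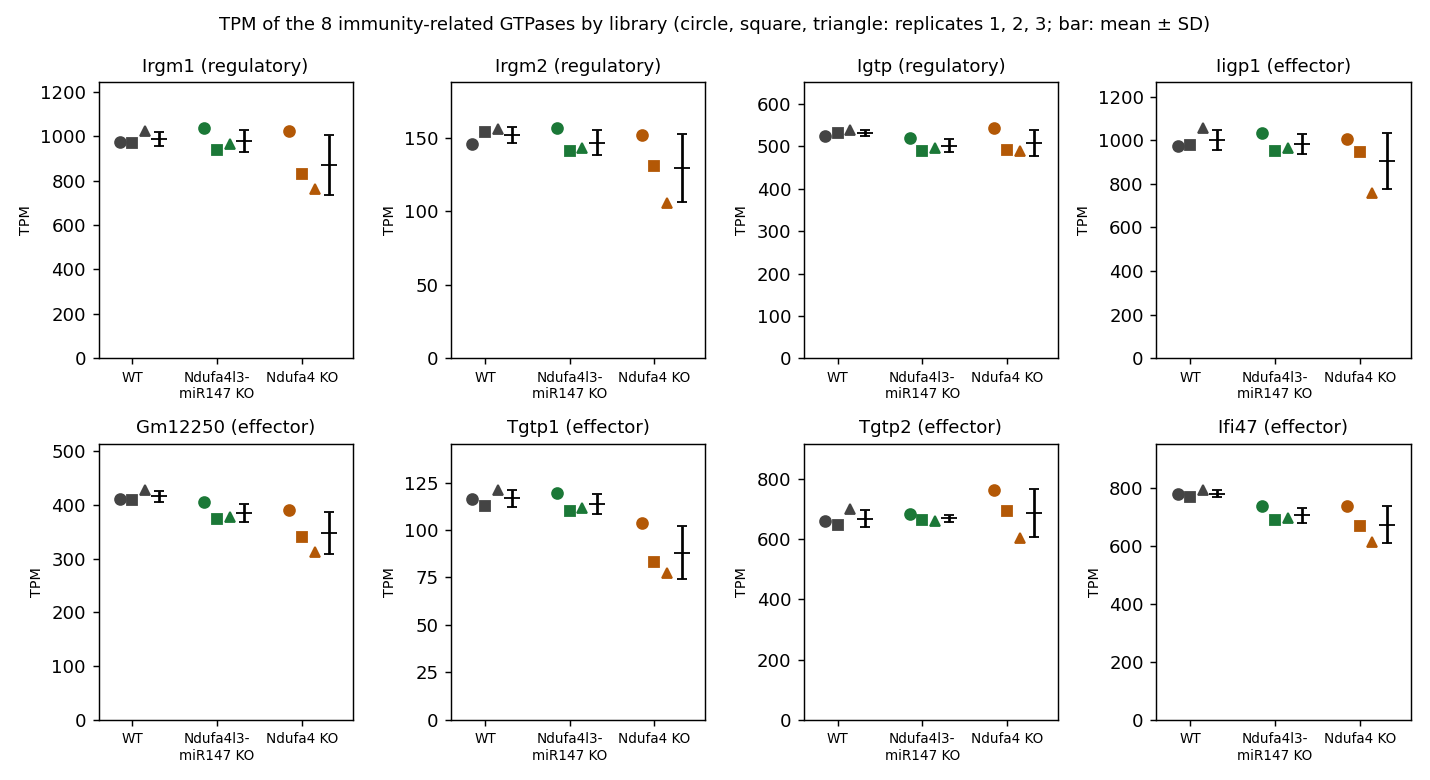
TPM (y axis, from 0) of each member in the 9 libraries by genotype (x axis); circles, squares and triangles are replicates 1, 2 and 3, and the bars are the mean ± SD of 3 libraries. Libraries of wild type and Ndufa4l3_miR147KO lie close together, whereas those of Ndufa4KO spread more widely for all 8 members, by their SD.

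Among the regulators, Irgm1, which is needed for resistance to mycobacteria and for autophagy, had 972, 969 and 1025 TPM in replicates 1 to 3 of wild type. It was at 1035, 939 and 964 TPM in Ndufa4l3_miR147KO and at 1022.5, 828 and 764 TPM in Ndufa4KO. The first Ndufa4KO library lay inside the wild-type range and the other 2 lay below it. The log2 fold change against wild type was -0.01 ± 0.10 (SE) in Ndufa4l3_miR147KO and -0.19 ± 0.10 in Ndufa4KO, with limma adjusted p of 1 and 0.239.

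Irgm2, a regulator of the Golgi region, was the least abundant of the 3 regulators, at 146, 154 and 156 TPM in wild type. It was at 156, 141 and 143 TPM in Ndufa4l3_miR147KO and at 152, 131 and 106 TPM in Ndufa4KO. The pattern over libraries was that of Irgm1, with overlap in both comparisons and a low Ndufa4KO replicate 3. Its log2 fold change in Ndufa4KO was -0.24 ± 0.11 (limma adjusted p = 0.209).

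Igtp, a regulator of the endoplasmic reticulum and lipid droplets, varied least of the 8, by 1.11-fold between its extreme libraries. It was at 523, 531 and 537 TPM in wild type, 519.5, 490 and 496 TPM in Ndufa4l3_miR147KO and 542, 492 and 489 TPM in Ndufa4KO. All Ndufa4l3_miR147KO libraries lay below all wild-type ones, while the Ndufa4KO libraries lay on both sides of them. The log2 fold changes were -0.08 ± 0.05 and -0.06 ± 0.05 (limma adjusted p = 0.805 and 0.444), and the latter was 0.01 with median-of-ratios scaling.

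Among the effectors, Iigp1, which oligomerises on the vacuole of Toxoplasma, was at 973, 979 and 1054 TPM in wild type. It was at 1035, 951 and 965 TPM in Ndufa4l3_miR147KO and at 1006, 944 and 760 TPM in Ndufa4KO. Only Ndufa4KO replicate 3 lay far from the rest. The log2 fold changes were -0.03 ± 0.09 and -0.16 ± 0.09 (limma adjusted p = 1 and 0.320), and the latter was -0.04 without Ndufa4KO replicate 3.

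Gm12250, the gene of IRGB10, which acts on bacterial membranes and helps to expose their contents to inflammasomes, was at 411, 409 and 428 TPM in wild type. It was at 405, 374 and 378 TPM in Ndufa4l3_miR147KO and at 390, 341 and 312 TPM in Ndufa4KO. In both knockouts all libraries lay below all wild-type libraries. The log2 fold change was -0.11 ± 0.08 in Ndufa4l3_miR147KO and -0.27 ± 0.08 in Ndufa4KO, and neither passed the test (limma adjusted p = 0.858 and 0.064).

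Ifi47, an effector of less defined role, showed the same order. It was at 778, 769 and 793 TPM in wild type, 735, 687 and 695 TPM in Ndufa4l3_miR147KO and 738, 667 and 613 TPM in Ndufa4KO. Again no knockout library reached the lowest wild-type one. The log2 fold change was -0.14 ± 0.06 in Ndufa4l3_miR147KO and -0.22 ± 0.06 in Ndufa4KO (limma adjusted p = 0.612 and 0.0736).

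Tgtp1 and Tgtp2, which encode near-identical effectors that bind the Toxoplasma vacuole, had different patterns in Ndufa4KO. The values of Tgtp1 were 116, 113 and 121 TPM in wild type and 119.5, 110 and 111 TPM in Ndufa4l3_miR147KO. In Ndufa4KO it was at 104, 83.0 and 77.5 TPM, below all 6 other libraries. Tgtp1 fell by 0.41 ± 0.10 on the log2 scale against wild type and was the only member that passed the test (limma adjusted p = 0.0354). Tgtp2 was at 660, 647 and 700.0 TPM in wild type, 683, 665 and 662 TPM in Ndufa4l3_miR147KO and 765, 694 and 606 TPM in Ndufa4KO. Its Ndufa4KO libraries lay above, within and below the wild-type range, with a log2 fold change of 0.04 ± 0.08 (limma adjusted p = 0.798).

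The split of the pair differed between Ndufa4KO and the other genotypes. Tgtp1 made up 14.99%, 14.81% and 14.76% of the summed TPM of both genes in wild-type replicates 1 to 3 and 14.9%, 14.2% and 14.4% in Ndufa4l3_miR147KO. In Ndufa4KO it made up 12.0%, 10.7% and 11.3%. The means were 14.9% ± 0.121, 14.5% ± 0.368 and 11.3% ± 0.642 (SD, n = 3 libraries), and no Ndufa4KO library reached the lowest of the other 6. This share was looked at after the members' values had been seen and is given as a description. As a ratio within 1 library, it is unchanged by the scaling of that library. In GENCODE M21 the median transcript lengths of Tgtp1 and Tgtp2 are 2823 and 2810 bases, but the annotation behind the TPM is not stated. The part of transcript length or RNA quality in the share was not tested. The sum of the pair was 786 ± 31.8 TPM in wild type, 784 ± 16.6 in Ndufa4l3_miR147KO and 776 ± 92.6 in Ndufa4KO. Fitted as a single entry, the sum had a log2 fold change of -0.02 ± 0.08 in Ndufa4KO (limma adjusted p = 0.872). Whether the share follows transcription of the genes or the assignment of reads between them was not tested.

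**Figure D3:**
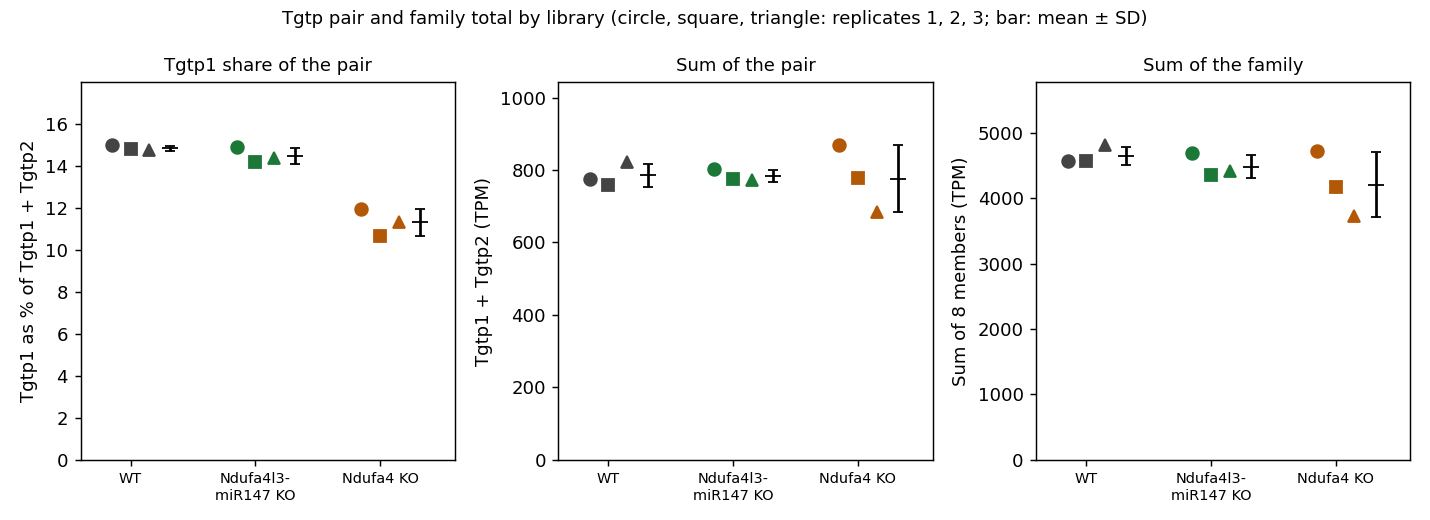
Tgtp1 as a percentage of Tgtp1 plus Tgtp2 (left), the TPM sum of the pair (middle) and the TPM sum of all 8 members (right) by genotype, with replicates 1, 2 and 3 as circles, squares and triangles and bars for the mean ± SD of 3 libraries. The share is 10.7% to 12.0% in Ndufa4KO and 14.17% to 14.99% elsewhere, while both sums overlap between genotypes.

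In Ndufa4l3_miR147KO the family was close to its wild-type levels. By limma 0 of 8 members were called at an adjusted p under 0.05, where 0.431% of all 11133 genes tested were, 0.243% higher and 0.189% lower. At an unadjusted p under 0.05 there were 0 members, where 8.24% of all genes were. Estimates were below 0 for 7 of 8 members, against 49.6% of all genes, with a median of -0.05 against 0.001 over all genes. Igtp, Gm12250 and Ifi47 lay below wild type without overlap, 3 of 8, where 12.0% of all genes did, and 0 lay above, where 11.9% did. The widest 95% interval, that of Irgm2, ran from -0.31 to 0.20 on the log2 scale and that of Ifi47 from -0.29 to 0.002. The spread behind these intervals was estimated over all 9 libraries, those of Ndufa4KO included. When only the 6 libraries compared were fitted, the SE of Ifi47 was 0.031 against 0.065 (limma adjusted p = 0.0613). That fit called 306 of all genes and 0 members.

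In Ndufa4KO against the same wild-type libraries, 1 of 8 members was called, Tgtp1, which fell. Over all genes 8.59% were called, 5.76% lower and 2.83% higher, so a single call in 8 is near that background. The calls over all genes were 32.9% higher, and 52.7% higher with median-of-ratios scaling. At an unadjusted p under 0.05 there were 3 members, Tgtp1, Gm12250 and Ifi47, where 26.1% of all genes were. The same 3 lay below wild type without overlap, where 21.7% of all genes did, and 0 lay above, where 9.40% did. Estimates were below 0 for 7 of 8 members against 64.5% of all genes, and the median was -0.20 against -0.08. With median-of-ratios scaling the median was -0.13 against -0.01, and Tgtp1 was again the 1 member called.

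The lower values in Ndufa4KO depended on which of its libraries were used. In replicate 1 all members lay above the mean of the other 2 Ndufa4KO libraries, with a median deviation of 0.25 on the log2 scale, and in replicate 3 all lay below, with a median of -0.26. Over all genes these medians were 0.06 and -0.11. Without replicate 3 the members' median fold change was -0.11 and Tgtp1 was still called (limma adjusted p = 0.0425). Over all genes the median was then -0.03, with 970 genes called lower and 617 higher. Without replicate 1 the members' median was -0.30 and 5 members fell, namely Tgtp1, Gm12250, Ifi47, Irgm1 and Irgm2 (limma adjusted p = 0.00353, 0.0116, 0.0154, 0.0173 and 0.0443). Over all 11070 genes of that fit the median was -0.09, with 760 called lower and 352 higher. Without replicate 2, without any single library of wild type or without any single library of Ndufa4l3_miR147KO, 0 members were called, with limma adjusted p for Tgtp1 of 0.0553 to 0.126. Those fits called 261 to 1084 of all genes. With the trend on transcript length removed from each library, Tgtp1 was called (limma adjusted p = 0.0278). The members' median was then -0.21, beside -0.07 over all genes, of which 1095 were called. The part of RNA or library quality in these values was not tested beyond that.

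The knockouts were also compared with each other, which uses libraries of both earlier comparisons. Of 8 members 0 were called, where 3.24% of all genes were, 2.20% higher and 1.04% lower. At an unadjusted p under 0.05 there was 1, Tgtp1, where 20.3% of all genes were. Estimates were below 0 for 2 of 8 against 33.8% of all genes. Tgtp1 was higher in every Ndufa4l3_miR147KO library than in any Ndufa4KO library, with a difference of 0.37 ± 0.10 (limma adjusted p = 0.0811). Such a separation was seen upward for 18.3% of all genes and downward for 6.98%, which held 0 members. For Irgm1, Irgm2, Iigp1 and Gm12250 the differences were 0.13 to 0.19, and for Igtp, Tgtp2 and Ifi47 they were -0.03 to 0.07. Without Ndufa4KO replicate 1, Tgtp1 and Irgm1 were called higher (limma adjusted p = 0.00714 and 0.0322), where 299 of 11070 genes were called higher and 148 lower.

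**Figure D4:**
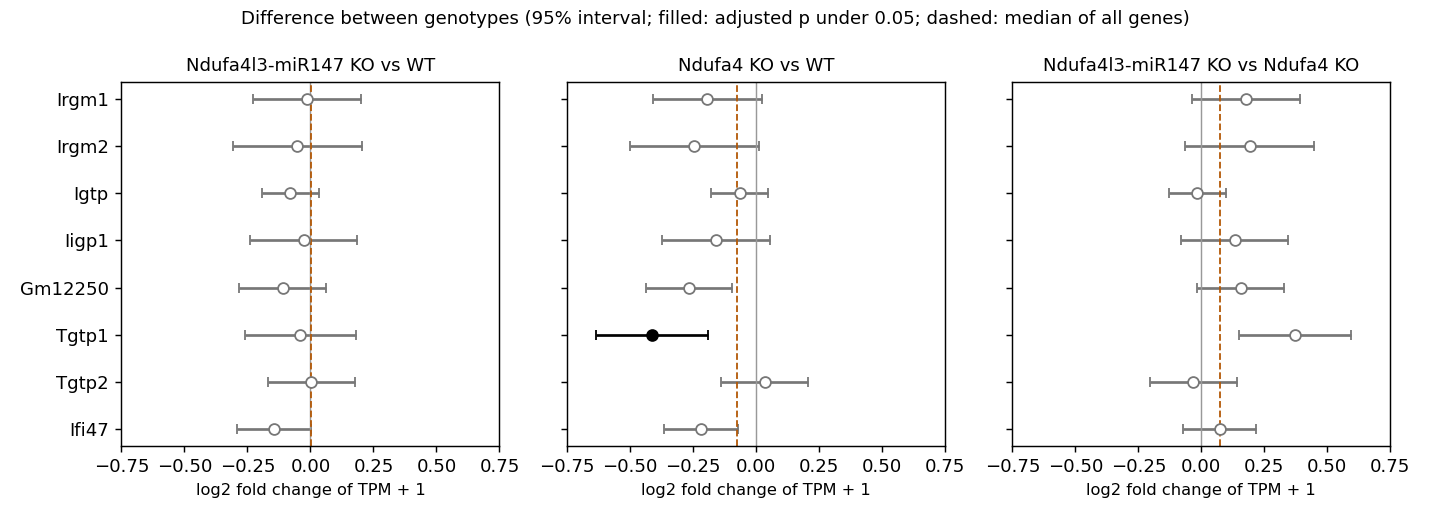
Log2 fold change of TPM + 1 (x axis) of the 8 members (y axis) in the 3 comparisons, with 95% intervals from limma; filled points have an adjusted p under 0.05 and the dashed line is the median of all 11133 genes. Tgtp1 in Ndufa4KO against wild type, at -0.41, is the only filled point.

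Members also shifted against each other. Relative to the mean log2 level of the 8 members in the same library, Tgtp2 was higher by 0.23 and Igtp by 0.13 in Ndufa4KO than in wild type, and Tgtp1 differed by -0.23, in each case without overlap between libraries. Gm12250 lay below wild type in this measure in both knockouts, with differences of -0.05 in Ndufa4l3_miR147KO and -0.08 in Ndufa4KO. In Ndufa4l3_miR147KO Ifi47 also lay below, at -0.09, and Irgm1 and Tgtp2 lay above, at 0.04 and 0.06, again without overlap. By construction the 8 differences of a genotype in this measure sum to 0, so some members must rise where others fall. Igtp, higher by this measure in Ndufa4KO, had a log2 fold change of -0.06 in its own level, with overlap between libraries. Tgtp1 and Tgtp2 also share most of their 31-base words. The measure has no share over all genes to stand beside, and these are descriptions with no test. Over the 9 libraries the log2 levels of pairs of members had Pearson r between 0.30, for Tgtp1 and Tgtp2, and 0.97, for Gm12250 and Ifi47. These r describe technical replicates of 3 genotypes that share 1 spread in Ndufa4KO, so they carry no p.

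Outside the family, the genes whose pattern over the 9 libraries was most like the members' mean standardised level were Arhgap15, Fundc1, Anxa4, Arl6ip1 and Dld, among 7283 genes with a mean of at least 10 TPM. Their Pearson r, given as a description with n = 9 libraries, were 0.99, 0.99, 0.99, 0.98 and 0.98. Arhgap15, for instance, was at 54.9 ± 2.31 TPM in wild type, 52.0 ± 3.29 in Ndufa4l3_miR147KO and 47.4 ± 8.86 in Ndufa4KO. Its Ndufa4KO libraries spread most, as the members' did, but it was picked for its likeness to them, so this is no separate result.

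Among other entries of the same gene family, 1 was called in Ndufa4KO, Gm4841. Of 9 listed, 8 were found and 7 passed the filter. All 7 had estimates below 0 against wild type, with a median of -0.39, beside 64.5% of all genes below 0 and a median of -0.08. The 1 call of 7 stands beside 5.76% of all genes called lower. At an unadjusted p under 0.05 there were 5 of the 7, where 26.1% of all genes were. Gm4841 fell from 32.8 ± 1.46 to 20.5 ± 3.40 TPM, or -0.66 ± 0.11 (limma adjusted p = 0.00934). In Ndufa4l3_miR147KO limma called 0 of 7, against 0.431% of all genes, and 0 had an unadjusted p under 0.05, against 8.24%. The list median there was 0.08, beside 0.001 over all genes. The 2 most abundant entries, Gm4951 and 9930111J21Rik2, differed there by 0.08 ± 0.09 and 0.17 ± 0.20 (limma adjusted p = 0.987 and 0.996). Between the knockouts Gm4841 was higher in Ndufa4l3_miR147KO by 0.59 ± 0.11 (limma adjusted p = 0.0248), the 1 call of 7, where 3.24% of all genes were called. In that comparison 5 of 7 had an unadjusted p under 0.05, against 20.3% of all genes.

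Guanylate-binding proteins, the larger GTPases that act with this family on vacuoles, showed 1 call of 9 in Ndufa4KO, where 8.59% of all genes were called. At an unadjusted p under 0.05 there were 4 of the 9, where 26.1% of all genes were. Gbp11 fell in Ndufa4KO by 1.12 ± 0.10 on the log2 scale, to 6.16 ± 0.162 TPM (limma adjusted p = 7.4e-04). The list median was -0.25 in Ndufa4KO and -0.10 in Ndufa4l3_miR147KO. Over all genes these medians were -0.08 and 0.001. In Ndufa4l3_miR147KO 9 of 9 estimates were below 0, against 49.6% of all genes, but 0 were called by limma and 1 had an unadjusted p under 0.05. Over all genes 0.431% were called there and 8.24% had an unadjusted p under 0.05. Gbp2 and Gbp3, the most abundant, differed in Ndufa4l3_miR147KO by -0.14 ± 0.07 and -0.10 ± 0.07 (limma adjusted p = 0.656 and 0.858). Between the knockouts Gbp11 was higher in Ndufa4l3_miR147KO by 0.88 ± 0.10 (limma adjusted p = 0.00222), the 1 call of 9, where 3.24% of all genes were called. In that comparison 4 of 9 had an unadjusted p under 0.05, against 20.3% of all genes.

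Genes listed for interferon-gamma signalling did not pass the test in any comparison. Of the 12 genes, among them the receptor chains, Jak1, Jak2 and Irf1, 0 were called by limma in any of the 3 comparisons. Over all genes 0.431%, 8.59% and 3.24% were called (Ndufa4l3_miR147KO and Ndufa4KO against wild type, then the knockouts against each other). In the same order 2, 1 and 1 had an unadjusted p under 0.05, where 8.24%, 26.1% and 20.3% of all genes did. The list medians were 0.005 in Ndufa4l3_miR147KO and -0.01 in Ndufa4KO. Irf1, an interferon regulatory factor, was at 674 ± 11.2, 687 ± 10.6 and 657 ± 15.5 TPM in wild type, Ndufa4l3_miR147KO and Ndufa4KO. Its log2 fold change against wild type was 0.03 ± 0.04 in Ndufa4l3_miR147KO and -0.04 ± 0.04 in Ndufa4KO (limma adjusted p = 1 and 0.554).

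The ATG8 conjugation system and related vacuole adaptors, which guide these GTPases to their target membranes, had 3 members of 19 called lower in Ndufa4KO and 0 higher, with a median of -0.16. Over all genes 5.76% were called lower and 2.83% higher, with a median of -0.08. An unadjusted p under 0.05 was seen for 9 of 19, where 26.1% of all genes had one. Map1lc3b, an ATG8 protein, fell by 0.32 ± 0.05 on the log2 scale from 88.5 ± 1.19 to 70.6 ± 0.906 TPM (limma adjusted p = 0.00516). Calcoco1, an autophagy receptor, fell by 0.51 ± 0.08 (limma adjusted p = 0.00618), and Sqstm1, the autophagy receptor p62, fell by 0.18 ± 0.04 (limma adjusted p = 0.0309). In Ndufa4l3_miR147KO limma called 0 of 19, against 0.431% of all genes, and 2 had an unadjusted p under 0.05, against 8.24%. There Gabarap and Sqstm1, the most abundant, differed by -0.01 ± 0.06 and 0.06 ± 0.04 (limma adjusted p = 1 and 0.885). The comparison between the knockouts uses the same Ndufa4KO libraries. In it Map1lc3b, Calcoco1 and Sqstm1 were called higher in Ndufa4l3_miR147KO, by 0.25, 0.36 and 0.23 (limma adjusted p = 0.0248, 0.0398 and 0.0195), where 2.20% of all genes were. In that comparison 6 of 19 had an unadjusted p under 0.05, against 20.3% of all genes.

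**Figure D5:**
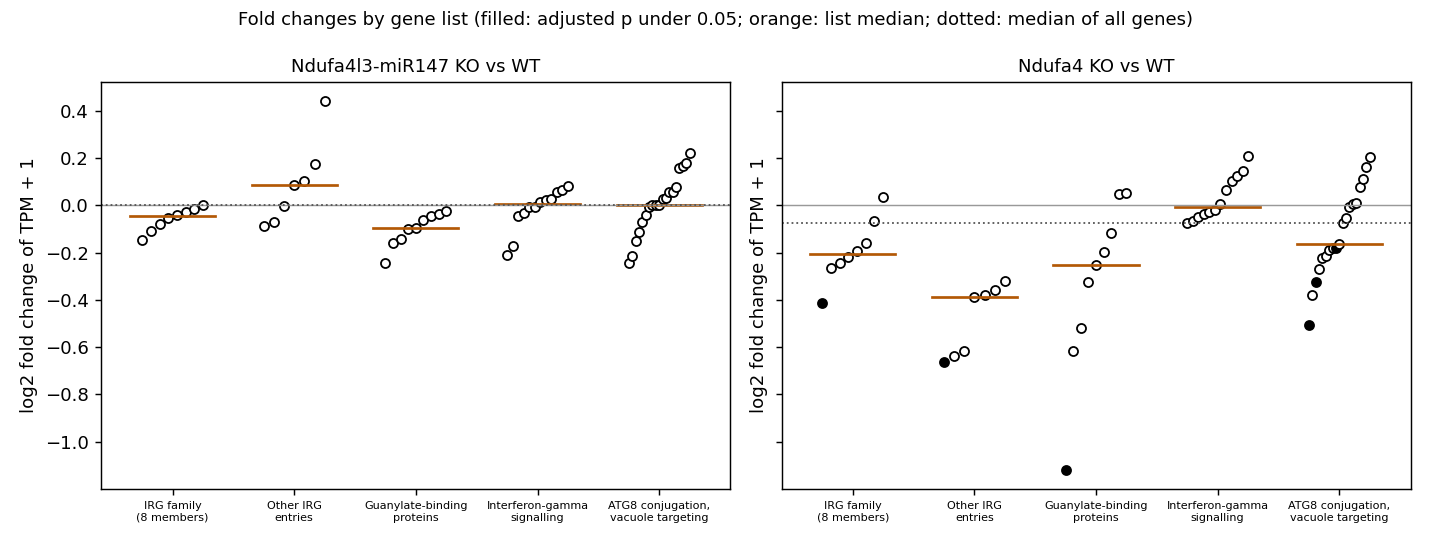
Log2 fold change of TPM + 1 (y axis) against wild type for the 8 members and 4 related gene lists (x axis), in Ndufa4l3_miR147KO (left) and Ndufa4KO (right); filled points have an adjusted p under 0.05, orange lines are list medians and the dotted line is the median of all genes. In Ndufa4KO the family's median of -0.20 lies below that of all genes, at -0.08, and the filled points, 1 in the family, 1 among other family entries, 1 guanylate-binding protein and 3 of the ATG8 list, are all below 0.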

How the data were processed

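The authors deposited TPM in 1 table of 29763 named genes. The submitters' processing notes list kallisto, edgeR, DESeq2, mm10 and GRCm39, without versions or roles. Neither the annotation nor how transcripts were summed is stated there. Since read depth cannot be had from TPM, it is unknown and values carry no counting interval. Named genes summed to 913474 to 921678 TPM per library, and 1 unnamed entry, 0.00277% of a library at most, stayed out. TPM are shares of a total, so abundant genes that rise lower the others.

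Here, log2(TPM + 1) of 11133 genes (1 TPM or more in 3 or more libraries) was fitted with 1 mean per genotype over all libraries (limma 3.58.1, R 4.3.3, intensity trend, two-sided, Benjamini-Hochberg over all genes, called under 0.05), after a test on simulated data. Fold changes are on this scale. Promoters are RefSeq GRCm38.p6, gene models GENCODE M21, and identities came from edlib. Of the related and marker genes 3 were not found by symbol and 1 was matched by an older symbol. Named were all members, the 5 genes most like them, and per list up to 2 called genes per direction, or the 2 most abundant. The values of 1 gene that this rule names are not reported here. The members and lists were chosen with earlier results of these data known. The alternatives, 21 in all, changed scaling, filter, pseudocount, variance model, weights or libraries.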

Additional observations from a re-analysis of the deposited data

How the results depend on the processing

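The number of members called in Ndufa4KO against wild type, 1, was 0 without the filter on low values, without the intensity trend, when only the 6 libraries compared were fitted and when Tgtp1 and Tgtp2 were summed. It was 6 with limma's library weights, which also gave 1 call in Ndufa4l3_miR147KO against wild type (Ifi47, lower) and 3 between the knockouts. With these weights 3045, 538 and 1726 of all 11133 genes were called in the same 3 comparisons, in that order. The cause of these changes in the number of members called was not tested, except that the sum leaves Tgtp1 no entry of its own. Leaving out 1 library gave 0 to 5 calls in Ndufa4KO against wild type, 0 to 0 in Ndufa4l3_miR147KO and 0 to 2 between the knockouts. With a replicate block the counts were 0, 1 and 0, so it changed no call, and same-numbered libraries' deviations correlated between -0.138 and 0.179, so the numbers were not taken as pairs. Over all genes, calls ranged from 13 to 538, 238 to 3045 and 64 to 1726 in the 3 comparisons, against 48, 956 and 361. Tgtp1 was below 0 in Ndufa4KO against wild type in 20 of 20 alternatives that fit it, and it was called in 10 of them. These alternatives refit the same libraries, so they are not separate evidence. Igtp, called with library weights, was at 0.01 with median-of-ratios scaling. Precision is limited by 3 technical libraries per genotype, by the spread of Ndufa4KO and by reads shared between Tgtp1 and Tgtp2.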
